A study of Mus musculus with 9 samples.

Results

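The phospholipases A2 of mouse epidermis described here are the products of 8 genes, Pla2g4a, Pla2g4d, Pla2g4e, Pla2g2e, Pla2g2f, Pla2g3, Pla2g6 and Pla2g12a. Every array probe set assigned by the platform annotation to exactly 1 of these genes was used, which gave 11 probe sets of 45037 in all and 8 genes of 18193. Pla2g6 was read by 3 probe sets, Pla2g2f by 2 and each other gene by 1. The arrays came from epidermal sheets scratched off frozen skin, 5 from mice in which Alox12b had been inactivated (Alox12b fl/fl Cre) and 4 from Alox12b fl/fl littermates, called controls. All mice were homozygous for the floxed Alox12b allele, were backcrossed for 5 generations onto the hairless SKH1 background, and received 3 intraperitoneal injections of 1 mg tamoxifen at 8 weeks of age, with epidermis taken 6 days after that treatment. The inactivated group alone also carried the tamoxifen-dependent Cre-ERT2 recombinase under the cytokeratin K14 promoter, which is active in basal keratinocytes, so recombinase activity and the loss of Alox12b cannot be told apart. The sex of the mice is not in the labels.

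A phospholipase A2 cuts the fatty acid from the middle position of a membrane phospholipid and leaves a lysophospholipid. The family holds cytosolic enzymes (group IV), most of which calcium draws to membranes, calcium-independent enzymes (group VI), and small secreted enzymes (groups II, III and XII). In skin the released arachidonate feeds prostaglandin and leukotriene synthesis. Secreted enzymes act on lipids of the upper epidermis and the hair follicle in mice, and the product of Alox12b oxidises the linoleate bound in barrier ceramides.

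All levels below are log2 values of a probe set as deposited, and a level of 1 probe set cannot be set against that of another. A difference is the inactivated mean minus the control mean, in log2 units, and ± gives its limma standard error over 5 and 4 arrays. Adjusted p-values are Benjamini-Hochberg values over all 45037 probe sets, read against a threshold of 0.05. A limma p-value here sets a difference against the spread between mice that the labels call biological replicates. A bulk array cannot tell fewer cells of a type from less RNA per cell.

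The members did not move as a block. Of the 8 genes, each read by its brightest probe set, Pla2g4d, Pla2g4e and Pla2g6 rose in the inactivated group, where 15.5% of all genes rose. Pla2g4a fell, where 18.9% of all genes did. The other 4 genes did not pass. Of the 11 probe sets, 4 rose (12.7% of all probe sets) and 2 fell (16% of all probe sets). Both group IV genes that rose changed by at least 2-fold, as did 5.77% of all genes in either direction. Without inactivated replicate 4 or control replicate 1 or 2, 2 member probe sets rose, those of Pla2g4d and Pla2g4e. The groups did not overlap in 5 of the 11 probe sets, against 25.7% of all probe sets. With a background of this size the members' count of calls says little, and the size of the changes is what sets Pla2g4d and Pla2g4e apart. By the size of its rise Pla2g4d ranked 7 of 18193 genes and Pla2g4e ranked 53.

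**Figure D1:**
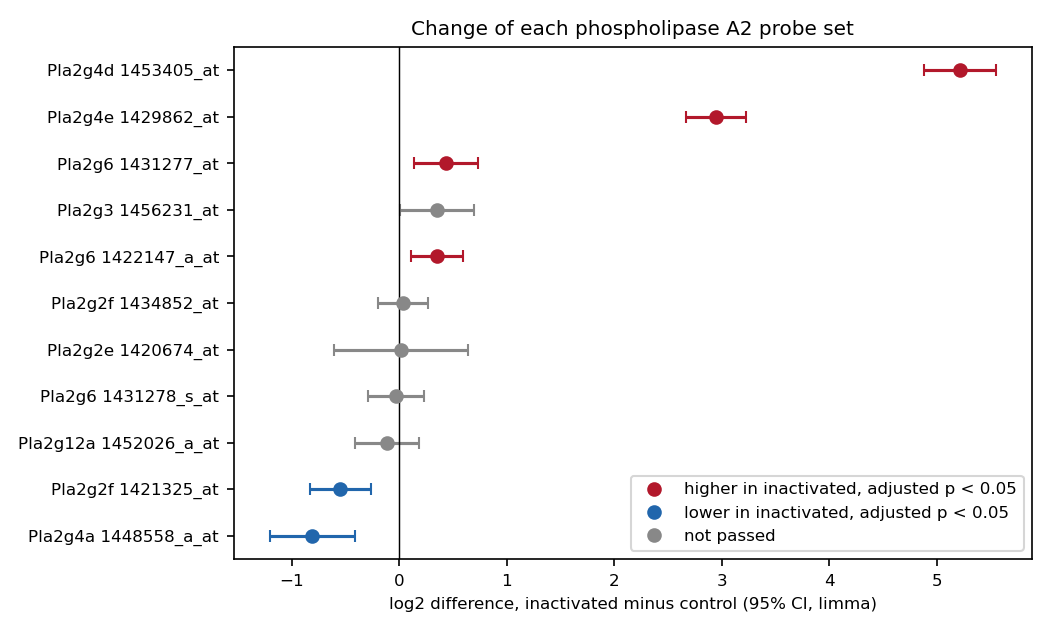
Difference of each of the 11 probe sets, inactivated minus control, in log2 units with its 95% confidence interval from limma (5 inactivated and 4 control arrays). Pla2g4d at 5.21 and Pla2g4e at 2.94 lie far to the right of the other 9 probe sets, which lie between -0.81 and 0.43.

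Pla2g4d encodes cytosolic phospholipase A2 delta, an enzyme first described in human psoriatic skin. It gave 7.95, 7.96, 8.01, 7.92 and 7.33 in the inactivated arrays, against 2.94, 2.50, 2.53 and 2.51 in the control arrays. All inactivated arrays lay more than 4 units above every control array, and the lowest of them was replicate 5. The difference was 5.21 ± 0.15 (37.1-fold, adjusted p = 3.59e-08, limma), and the mean log2 level was 7.83 ± 0.28 in inactivated epidermis and 2.62 ± 0.21 in control epidermis (SD, n = 5 and n = 4). The control mean stood at percentile 23.9 of all probe sets, a dim level at which array folds tend to be understated.

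Pla2g4e encodes cytosolic phospholipase A2 epsilon, which can also move an acyl chain onto phosphatidylethanolamine to form N-acyl phosphatidylethanolamines. It gave 9.91, 9.78, 9.46, 9.61 and 9.28 in the inactivated arrays, against 6.64, 6.75, 6.48 and 6.79 in the control arrays. The groups were again far from overlapping, and replicate 5 was again the lowest inactivated array. The difference was 2.94 ± 0.13 (7.69-fold, adjusted p = 4.90e-07, limma). Unlike Pla2g4d, it was read at an easily measured level in the controls, at percentile 75.1 of all probe sets.

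**Figure D2:**
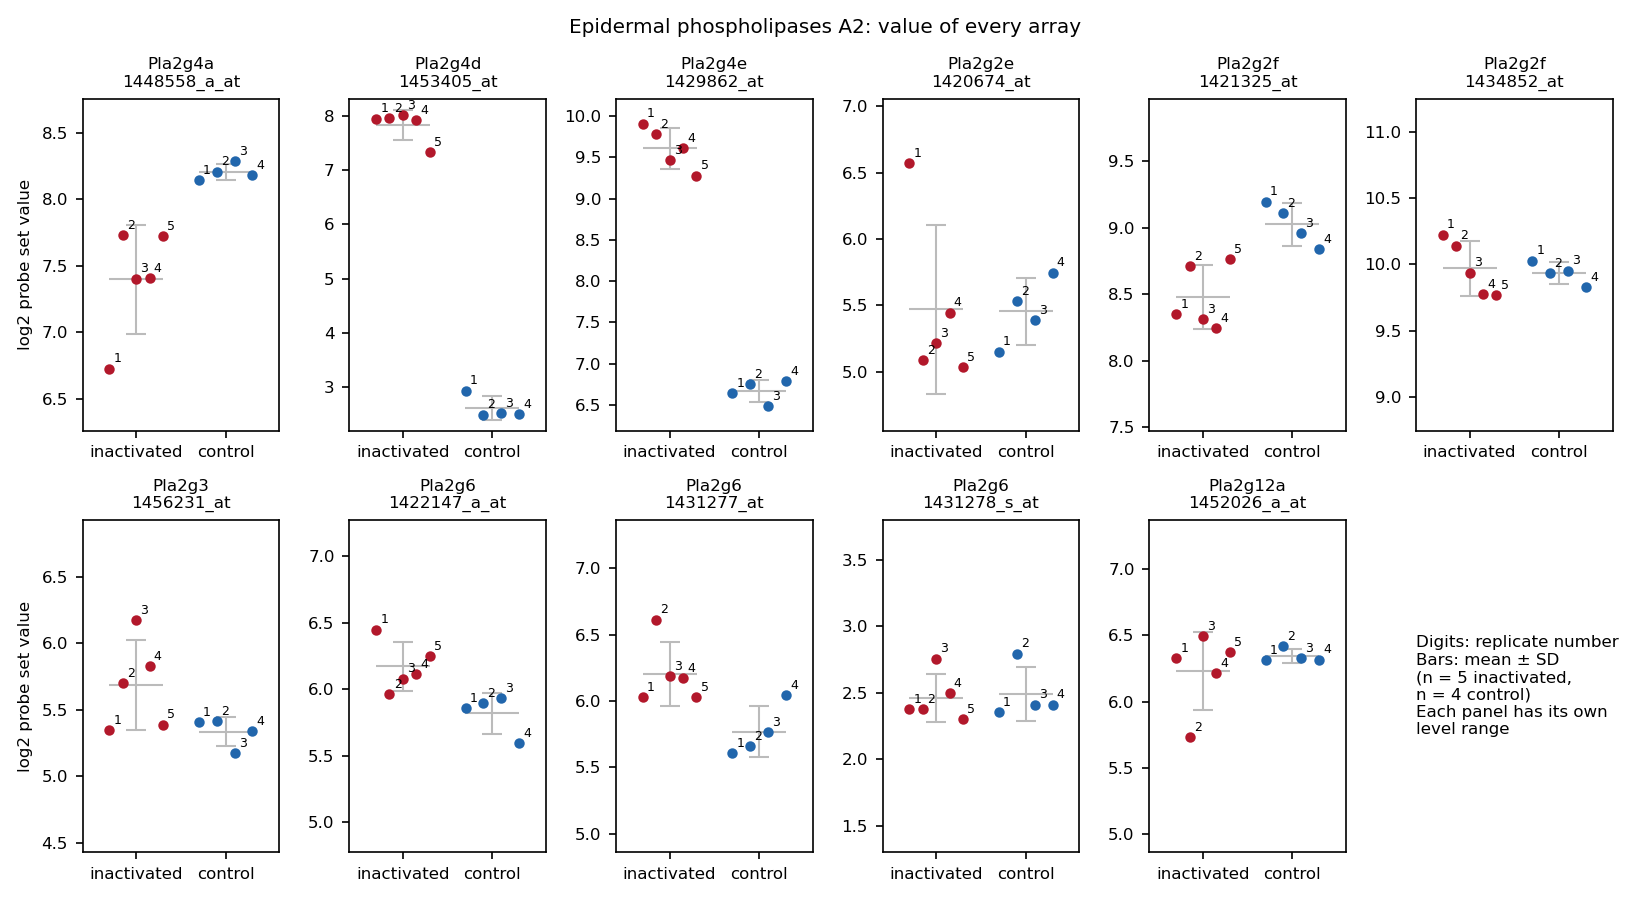
Log2 value of every array for each of the 11 probe sets, inactivated left and control right in each panel, with the replicate number beside each point and grey bars for mean ± SD (n = 5 and n = 4). Pla2g4d lies between 7.33 and 8.01 in the inactivated group and between 2.50 and 2.94 in the controls, while the Pla2g2e panel shows 1 inactivated array at 6.57 above all others.

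In the reference gene order Pla2g4e, Pla2g4d and Pla2g4f follow one another on chromosome 2, between Ehd4 and Vps39. Pla2g4f, a further cytosolic enzyme that is not among the 8 genes, gave 7.68, 8.31, 7.72, 7.77 and 8.07 in the inactivated arrays, against 7.87, 7.31, 7.65 and 7.69 in the control arrays. Its groups overlapped, and its difference of 0.28 ± 0.15 did not pass (adjusted p = 0.194, limma). Pla2g4d changed by 4.94 more than Pla2g4f, and Pla2g4e by 2.67 more. Both of these comparisons gave an exact permutation p of 0.0159, the smallest possible, and the partner was chosen after its values were seen. The flanking genes did not pass either, with differences of -0.03 ± 0.14 for Ehd4 and 0.00 ± 0.07 for Vps39. Within this cluster the 2 genes that rose are thus next to each other, and the 3 measured genes around them did not pass.

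**Figure D3:**
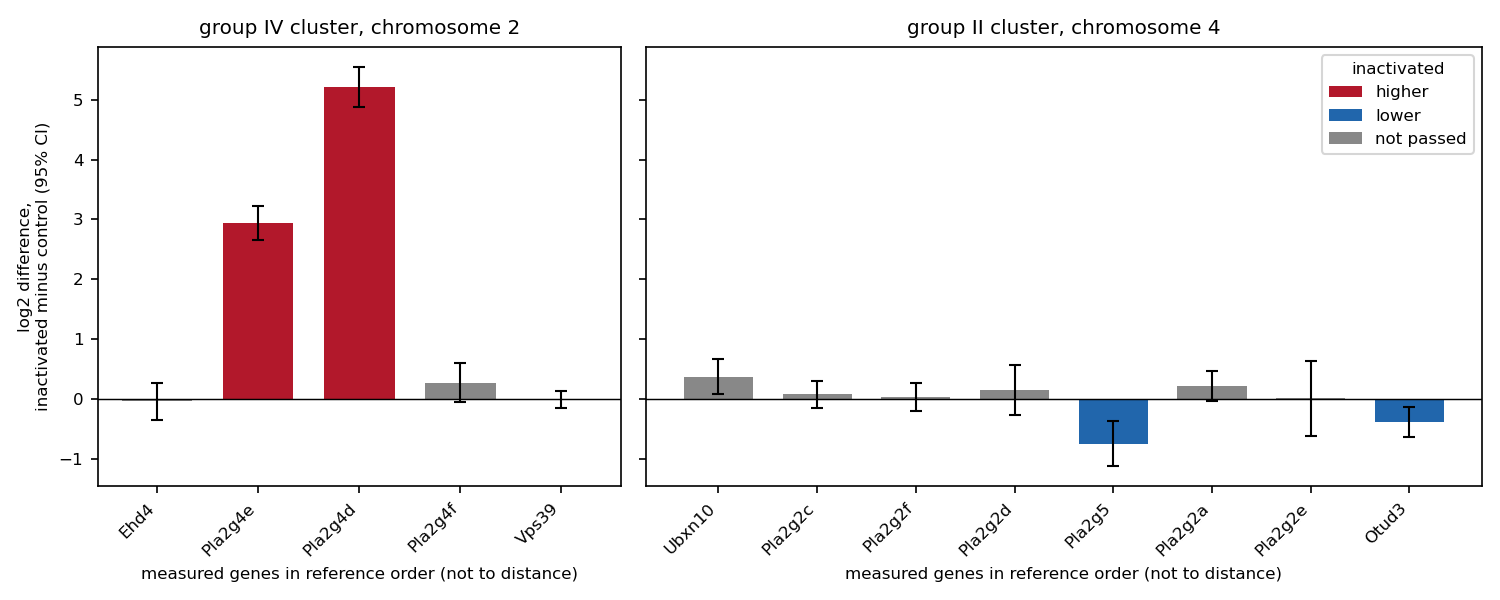
Difference of each measured gene, inactivated minus control (log2, bars from 0, with 95% confidence intervals from limma), in the reference order of the group IV cluster and of the group II cluster, spaced by order and not by distance. Pla2g4e and Pla2g4d stand at 2.94 and 5.21 between neighbours near 0, and in the group II cluster Pla2g5 at -0.74 and Otud3 at -0.39 are the genes that passed. Pla2g2f is drawn from its brighter probe set.

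The start regions of Pla2g4d and Pla2g4e are shown because these neighbours changed together, and that of Pla2g2e because, of the 7 members with such a region at hand, it alone held the AP-1 letters. They are RefSeq sequences of GRCm38.p6, from 250 bases before to 50 bases after the annotated start, written 5′ to 3′ along the gene. Pla2g4d lies at chr2:120289020-120289319 on the minus strand, Pla2g4e at chr2:120245286-120245585 on the minus strand, and Pla2g2e at chr4:138877692-138877991 on the plus strand. Capitals mark matches, on either strand, to any of 6 sets of letters. That for the factor AP-1 was TGANTCA and that for the C/EBP factors was TTGCNNAA. That for NF-kappaB was GGG and CC with any 5 bases between them, and that for the STAT factors was TTCNNNGAA. That for the grainyhead-like factors was AACNGGTT, and that for the TATA box was TATAAA.
Pla2g4d: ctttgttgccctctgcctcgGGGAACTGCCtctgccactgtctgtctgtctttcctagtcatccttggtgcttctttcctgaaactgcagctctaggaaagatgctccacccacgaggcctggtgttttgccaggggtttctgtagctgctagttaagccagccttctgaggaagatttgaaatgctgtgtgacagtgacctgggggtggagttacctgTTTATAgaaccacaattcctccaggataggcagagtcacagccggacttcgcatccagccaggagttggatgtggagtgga
Pla2g4e: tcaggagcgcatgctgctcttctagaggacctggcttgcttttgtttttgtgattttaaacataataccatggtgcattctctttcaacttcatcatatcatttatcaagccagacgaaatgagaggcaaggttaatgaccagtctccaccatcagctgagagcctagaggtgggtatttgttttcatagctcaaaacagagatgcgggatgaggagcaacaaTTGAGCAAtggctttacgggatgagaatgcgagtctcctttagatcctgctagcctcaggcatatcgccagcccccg
Pla2g2e: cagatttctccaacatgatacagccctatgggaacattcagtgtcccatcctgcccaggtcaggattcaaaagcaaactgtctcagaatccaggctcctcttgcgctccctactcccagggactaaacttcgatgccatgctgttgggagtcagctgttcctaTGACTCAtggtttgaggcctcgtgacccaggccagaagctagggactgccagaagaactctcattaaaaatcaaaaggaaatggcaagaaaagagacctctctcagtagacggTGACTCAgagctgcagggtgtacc
No marked stretch overlaps another. The Pla2g4d window held the NF-kappaB letters 230 bases before the start and the TATA letters, read on the opposite strand, 31 bases before it. The Pla2g4e window held only the C/EBP letters, read on the opposite strand, 27 bases before the start. The windows of Pla2g4d and Pla2g4e thus had no motif of the 6 in common. The Pla2g2e window held TGACTCA 87 bases before the start and again 26 bases after it. Of all 32851 such windows, 50.8% held the NF-kappaB letters, 13.6% the TATA letters, 10.8% the C/EBP letters, 8.30% the STAT letters, 7.81% the AP-1 letters and 2.09% the grainyhead-like letters. The NF-kappaB letters were also in the windows of Pla2g2f, Pla2g12a and Pla2g6, the other member that rose. The C/EBP letters were also in the window of Pla2g12a, which did not pass. The TATA letters were also in a second window of Pla2g4a, which fell. Such matches describe letters in these windows only, and the window of Pla2g3 was not used here.

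Pla2g4a, the cytosolic enzyme best known for releasing arachidonate, moved the other way. It gave 6.73, 7.73, 7.40, 7.41 and 7.72 in the inactivated arrays, against 8.14, 8.21, 8.29 and 8.18 in the control arrays. All inactivated arrays lay below all controls, and they were more spread, with an SD of 0.41 in the inactivated group (n = 5) and 0.06 in the controls (n = 4). It fell by 0.81 ± 0.18 (adjusted p = 0.00689, limma). The lowest inactivated array was replicate 1, and without it the difference was -0.64.

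Next to Pla2g4a on chromosome 1 is Ptgs2, the inducible cyclooxygenase that turns released arachidonate into prostaglandin precursor. Ptgs2 gave 6.31, 6.27, 4.42, 5.52 and 3.79 in the inactivated arrays, against 2.70, 2.57, 3.07 and 2.40 in the control arrays. Its control mean of 2.69 is dim, at percentile 25.3 of all probe sets, so the size of its rise is approximate too. It rose by 2.58 ± 0.48 (adjusted p = 0.00259, limma), and its dimmer probe set rose by 1.23 ± 0.34 (adjusted p = 0.0193, limma). The inactivated arrays varied by more than 2 units, with replicate 5 closest to the controls. These neighbours thus passed in opposite directions.

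Of the secreted enzymes among the members, none passed on its brightest probe set. Pla2g2f, the group IIF enzyme of the suprabasal epidermis in mice, was read by a pair of probe sets that disagreed. The brighter, 1434852_at, gave 10.22, 10.14, 9.94, 9.78 and 9.77 in the inactivated arrays, against 10.03, 9.93, 9.95 and 9.83 in the control arrays, with the control arrays inside the range of the inactivated ones. Its difference was 0.03 ± 0.11 (adjusted p = 0.841, limma), with a 95% confidence interval of -0.20 to 0.27. The other, 1421325_at, gave 8.35, 8.71, 8.31, 8.24 and 8.76 in the inactivated arrays, against 9.20, 9.11, 8.96 and 8.84 in the control arrays. There all inactivated arrays lay below all controls, closest between 8.76 and 8.84, and the value fell by 0.55 ± 0.13 (adjusted p = 0.00881, limma). Which part of the transcript each probe set reads is not given in the sources used here. The change of 1421325_at minus that of 1434852_at was -0.58 (exact permutation p = 0.0159, the smallest possible). Its per-array values did not overlap between the groups, though they almost touched. The adjusted exact permutation p over 4 pairs of probe sets of 1 gene was 0.0635. Given the p-values of the other pairs, this pair could not have passed the adjustment whatever its values. The adjusted value therefore does not decide whether these probe sets changed differently. The mean of both probe sets differed by -0.26 (adjusted p = 0.0509 over all genes, limma).

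Pla2g2e, the group IIE enzyme found in mouse hair follicles, gave 6.57, 5.09, 5.22, 5.45 and 5.04 in the inactivated arrays, against 5.15, 5.53, 5.39 and 5.75 in the control arrays. Replicate 1 of the inactivated group was more than 1 unit above the next inactivated array, and the other 4 overlapped the controls. The difference was 0.02 ± 0.28 (adjusted p = 0.971, limma), with a 95% confidence interval of -0.61 to 0.64. Without inactivated replicate 1 it was -0.26 (adjusted p = 0.188, limma). Over the 7 measured hair follicle markers, of which 1 rose and 5 lay below the median level of all probe sets, the median deviation from the control mean was 0.54, 0.29, 1.32, 1.13 and 0.14 for replicates 1 to 5 of the inactivated group, against -0.05 to 0.14 for the control arrays. The part of hair follicle content in the Pla2g2e values was not tested.

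Pla2g3, a secreted enzyme related to that of bee venom, gave 5.35, 5.70, 6.18, 5.83 and 5.39 in the inactivated arrays, against 5.41, 5.42, 5.18 and 5.34 in the control arrays. Inactivated replicates 2, 3 and 4 lay above every control, and replicates 1 and 5 lay among them. The difference of 0.35 ± 0.16 did not pass (adjusted p = 0.118, limma). Pla2g12a, of the secreted group XII, gave 6.32, 5.73, 6.50, 6.21 and 6.37 in the inactivated arrays, against 6.31, 6.42, 6.32 and 6.32 in the control arrays. Its controls lay between 6.31 and 6.42, and inactivated replicate 2 was the lowest of all 9 arrays. The difference was -0.11 ± 0.13 (adjusted p = 0.557, limma), with a 95% confidence interval of -0.41 to 0.18.

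Along chromosome 4 the reference order runs Pla2g2c, Pla2g2f, Pla2g2d, Pla2g5, Pla2g2a and Pla2g2e. Of these 6 secreted enzyme genes, Pla2g5 alone passed on the brightest probe set, and it fell by 0.74 ± 0.17 (adjusted p = 0.0081, limma). Pla2g5 gave 6.01, 5.18, 5.28, 5.62 and 5.89 in the inactivated arrays, against 6.12, 6.49, 6.35 and 6.41 in the control arrays. Differences of the other 5 lay between 0.02 and 0.23, and Pla2g2a, a pseudogene in the reference strain, read 2.80 in the inactivated group and 2.57 in the controls.

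Pla2g6 encodes the calcium-independent group VI enzyme. Probe set 1422147_a_at gave 6.45, 5.96, 6.08, 6.11 and 6.25 in the inactivated arrays, against 5.86, 5.89, 5.93 and 5.59 in the control arrays, a rise of 0.35 ± 0.11 (adjusted p = 0.0346, limma). Probe set 1431277_at gave 6.03, 6.61, 6.19, 6.17 and 6.03 in the inactivated arrays, against 5.61, 5.66, 5.77 and 6.04 in the control arrays, a rise of 0.43 ± 0.13 (adjusted p = 0.0324, limma). The groups almost touched on the first and overlapped on the second. The third, 1431278_s_at, had means of 2.46 in the inactivated group and 2.49 in the controls and a difference of -0.03 ± 0.12 (adjusted p = 0.871, limma), at percentile 19.9 of all probe sets. Averaged over its 3 probe sets, Pla2g6 rose by 0.25 ± 0.06 (adjusted p = 0.00777 over all genes, limma). That standard error is smaller than those of the single probe sets, and the 2 brighter ones ordered the arrays differently. Within its group, inactivated replicate 2 was lowest on 1422147_a_at and highest on 1431277_at, and so was control replicate 4. Such opposite deviations offset each other in the mean. Their origin was not tested, so the adjusted p of the mean is not read here as firmer than those of the single probe sets. The calls of the single probe sets depended on single arrays. That of 1422147_a_at was lost without inactivated replicate 1, 4 or 5 or control replicate 1, 2 or 4, with differences of 0.28 to 0.38 and adjusted p of 0.0526 to 0.106. That of 1431277_at was lost without inactivated replicate 3 or 4 or control replicate 1, 2 or 3, with differences of 0.38 to 0.44 and adjusted p of 0.0522 to 0.0888. With sex, as a covariate, read from Xist and Y-linked transcripts (female in 3 of 5 inactivated and 1 of 4 control mice), 1422147_a_at had a difference of 0.36 (adjusted p = 0.0547, limma).

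Whether the members changed by different amounts was tested for all 28 pairs, on the per-array difference between the brightest probe sets, with two-sided exact permutation tests over the 126 splits of the arrays and adjustment over the 28 pairs. In 16 pairs the changes differed (adjusted p = 0.0278 in each, from a raw p of 0.0159, the smallest possible). These were all 13 pairs with Pla2g4d or Pla2g4e, and the pairs of Pla2g4a with Pla2g2f, Pla2g3 and Pla2g6. Pla2g4d rose by 2.27 more than Pla2g4e, with per-array differences of -1.96 to -1.45 in the inactivated group and -4.28 to -3.70 in the controls. The control level of Pla2g4d is dim, so the size of this difference, like the rank of its rise, is read as approximate and possibly understated. The Pla2g4a change minus that of Pla2g2f was -0.84 on the brighter Pla2g2f probe set, but -0.26 on 1421325_at (exact permutation p = 0.175, a comparison added after the values were seen). Pla2g4a against Pla2g2e (-0.82) and against Pla2g12a (-0.69) did not pass (adjusted exact permutation p = 0.111 each). Among Pla2g2e, Pla2g2f, Pla2g3, Pla2g6 and Pla2g12a no pair passed, and the smallest adjusted exact permutation p there was 0.0523, for Pla2g6 against Pla2g12a.

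**Figure D4:**
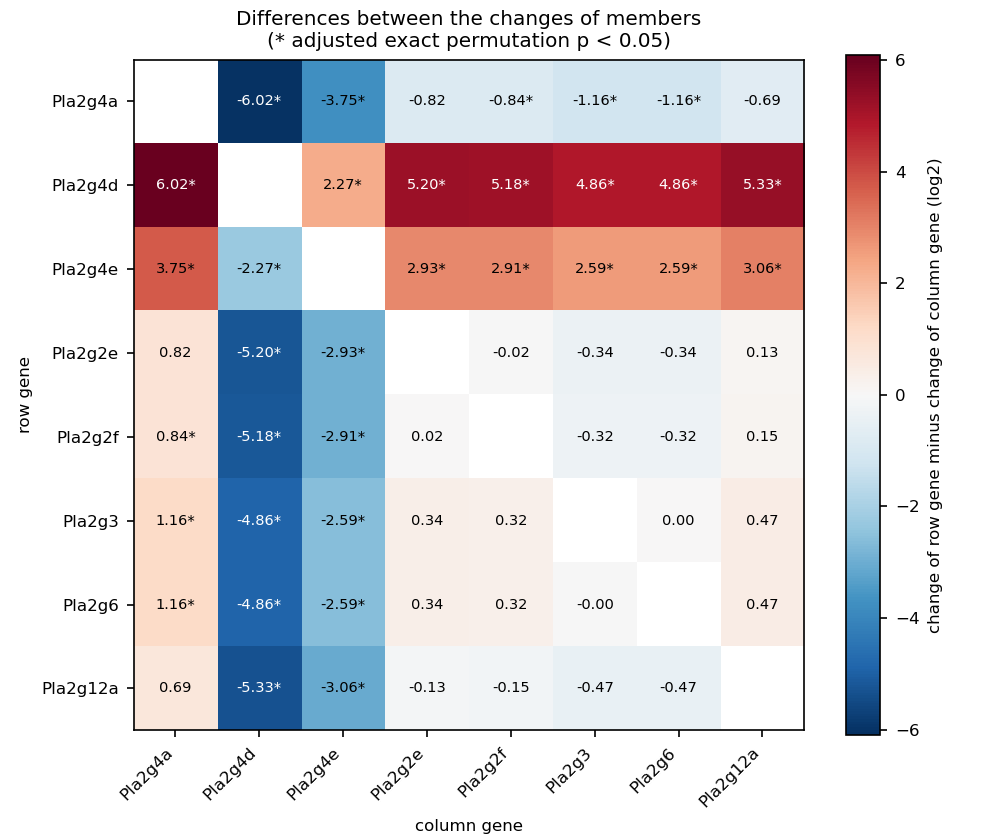
Change of the row gene minus change of the column gene (log2, each change being inactivated minus control) for the 28 pairs of members, with asterisks for an adjusted exact permutation p under 0.05. The rows of Pla2g4d and Pla2g4e carry asterisks throughout, with 2.27 between the 2 genes, while the block of Pla2g2e, Pla2g2f, Pla2g3, Pla2g6 and Pla2g12a carries none.

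The genes nearest to each of the 2 strongly risen members were found by the root mean square distance over the 9 arrays between values centred on the control mean. For Pla2g4d these were Sprr2f (distance 0.34), the urate oxidase gene Uox (0.35) and Sprr2j-ps (0.38), with rises of 5.36 ± 0.30, 5.11 ± 0.30 and 5.38 ± 0.33. For Pla2g4e they were the kallikrein Klk13 (0.18), Sprr2h (0.20) and the potassium channel Kcnj12 (0.26), with rises of 3.10 ± 0.16, 3.16 ± 0.12 and 2.96 ± 0.20. Sprr2 genes encode small proline-rich proteins of the cornified envelope, and their transcripts are alike enough to share probes. Likeness here is mostly likeness in the size of the rise.

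Around the 8 members, 7 lists of genes that release, bind, rebuild or use the same lipids were counted in the same fit. Over all genes the median difference was 0.03, and 15.5% of genes rose and 18.9% fell. The counts of each list are to be read beside these shares, and no set test was run. Of 11 other measured phospholipases A2, with a median of 0.08, 2 rose, 2 fell and 7 did not pass. Pla2g7, which breaks down platelet-activating factor, gave 8.56, 8.32, 8.47, 8.59 and 8.18 in the inactivated arrays, against 7.12, 7.40, 7.14 and 7.19 in the control arrays, without overlap, and rose by 1.21 ± 0.10 (adjusted p = 2.16e-05, limma). Pla2g4c rose by 0.32 ± 0.08 from a dim level, and the lysosomal Pla2g15 fell by 0.77 ± 0.14, and its dimmer probe set fell by 0.63 ± 0.13.

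Patatin-like lipases, a related family to which Pla2g6 also belongs by its catalytic domain, had 2 of 7 higher, 2 lower and 3 not passing, with a median of -0.19. Pnpla1, which transfers linoleate onto ceramide to make acylceramide, rose by 0.90 ± 0.09, and Pnpla8, a calcium-independent phospholipase of mitochondria, by 0.25 ± 0.06, while its dimmer probe set read -0.17 and did not pass. Pnpla3, a lipid droplet enzyme, gave 6.14, 5.28, 6.26, 7.03 and 7.55 in the inactivated arrays, against 9.20, 8.57, 8.49 and 8.46 in the control arrays, and fell by 2.23 ± 0.39 (adjusted p = 0.00174, limma). Pnpla7, a lysophospholipase, fell by 0.51 ± 0.16, a call lost without inactivated replicate 1 or control replicate 2, 3 or 4 (-0.52 to -0.47, adjusted p of 0.0534 to 0.096, limma).

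Of 5 genes for the receptor, activators and inhibitory partners of phospholipase A2, with a median of -0.27, 1 rose, 3 fell and 1 did not pass. The activating protein Plaa rose by 0.54 ± 0.08, while its 3 dimmer probe sets, each at 0.12, did not pass. S100a10, which binds annexin A2 and can inhibit the Pla2g4a enzyme, fell by 0.41 ± 0.08, annexin A2 (Anxa2) by 0.27 ± 0.08 and the receptor of secreted enzymes, Pla2r1, by 0.41 ± 0.11. The Anxa2 call was lost without inactivated replicate 2 or control replicate 1 or 2 (-0.26 to -0.22, adjusted p of 0.0501 to 0.0667, limma). The Pla2r1 call was lost without control replicate 2 or 4 (-0.37 to -0.34, adjusted p of 0.0642 to 0.0677, limma). Annexin A1 (Anxa1) at -0.03 ± 0.06 did not pass on its brightest probe set, and a dimmer one rose by 0.95 (adjusted p = 0.0362, limma).

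Of 8 other phospholipases that cut acyl chains, with a median of 0.52, 4 rose, 2 fell and 2 did not pass. Ddhd1, a phospholipase A1 acting on phosphatidic acid, rose by 1.19 ± 0.23, Plbd1 by 0.88 ± 0.10, the phospholipase B gene Plb1 by 0.78 ± 0.13 and the endothelial lipase Lipg by 0.72 ± 0.21. Liph, which makes lysophosphatidic acid and is needed for hair growth in humans, fell by 0.68 ± 0.09, and Ddhd2 fell by 0.76 ± 0.13, with dimmer probe sets at -0.25 to 0.09. The Lipg call was lost without inactivated replicate 2 or control replicate 2, 3 or 4 (0.62 to 0.71, adjusted p of 0.0506 to 0.0766, limma), though its second probe set also rose, by 0.76 (adjusted p = 0.00657, limma).

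The other product of a phospholipase A2, the lysophospholipid, is either broken down, read by receptors or rebuilt. Of 10 measured genes of breakdown and signalling, with a median of 0.02, 2 rose, 3 fell and 5 did not pass. The lysophospholipase D Gdpd1 rose by 1.41 ± 0.09 (adjusted p = 3.96e-06, limma), and its second probe set by 1.17. The lysophosphatidic acid receptor Lpar3 fell by 1.68 ± 0.18 (adjusted p = 9.26e-05, limma). Gdpd3, Lyplal1 and the receptor Lpar2 passed at 0.40 ± 0.11, -0.42 ± 0.11 and -0.42 ± 0.14, and each call was lost without some single array. For Gdpd3 these were inactivated replicate 2 and control replicates 1, 3 and 4 (0.36 to 0.40), for Lyplal1 control replicate 4 (-0.39), and for Lpar2 inactivated replicates 1, 3 and 4 and control replicates 2, 3 and 4 (-0.45 to -0.31). The second Lpar2 probe set also fell, by 0.53 (adjusted p = 0.00575, limma), without overlap between the groups.

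Acyltransferases that put a fatty acid back onto lysophospholipids had 5 of 8 higher, 1 lower and 2 not passing, with a median of 0.34. Lpcat4 rose by 0.91 ± 0.14, Lpcat3, which favours arachidonate and linoleate, by 0.47 ± 0.10, Mboat7, which puts arachidonate onto phosphatidylinositol, by 0.39 ± 0.08 and Mboat1 by 0.48 ± 0.15. Lpcat2, which also makes platelet-activating factor, fell by 0.95 ± 0.08, and its second probe set by 0.82. The Mboat1 call was lost without inactivated replicate 2 or control replicate 1, 3 or 4 (0.43 to 0.47), while its second probe set rose by 0.97. Mboat2 did not pass on its brightest probe set (-0.33), but its dimmer probe set fell by 1.58 ± 0.23 (adjusted p = 0.000639, limma), without overlap between the groups.

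Of 9 measured enzymes that first act on released arachidonate, with a median of -0.30, 3 rose, 3 fell and 3 did not pass. Besides Ptgs2, the prostaglandin E synthase Ptges rose by 1.33 ± 0.17 on its brightest probe set and by 0.80 and 0.84 on the others, and the prostaglandin D synthase Ptgds rose by 1.02 ± 0.21. The 3 that fell, Alox5, its partner Alox5ap and Ltc4s, all act in leukotriene synthesis, with differences of -0.60 ± 0.12, -0.48 ± 0.12 and -0.49 ± 0.09. Lta4h, a further enzyme of leukotriene synthesis, did not pass on its brightest probe set (-0.30 ± 0.11, adjusted p = 0.0574, limma). A dimmer Lta4h probe set rose by 0.41 ± 0.11 (adjusted p = 0.0149, limma), without overlap between the groups, and another did not pass. Hpgds (-0.41) and Ptges2 (0.01) did not pass either.

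**Figure D5:**
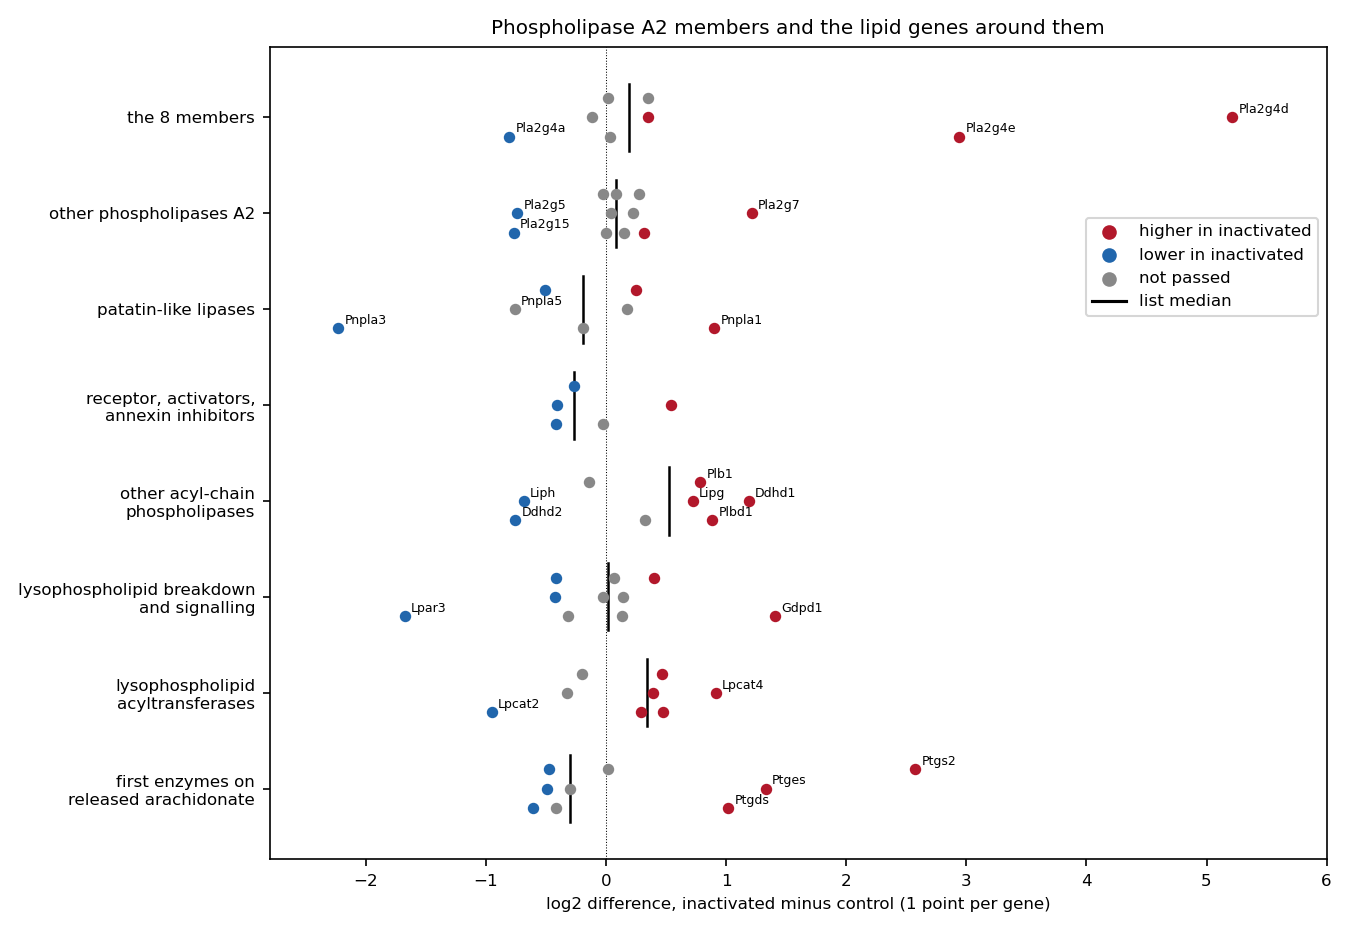
Difference of each measured gene, inactivated minus control (log2), by list, 1 point per gene from its brightest probe set, coloured by the limma call at adjusted p 0.05, with black lines for list medians. Pla2g4d at 5.21 and Pla2g4e at 2.94 exceed every gene of the other 7 lists, among which Ptgs2 at 2.58 and Pnpla3 at -2.23 lie farthest out.

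Markers of the sampled tissue and of other cells are given because several differed between the groups, as some members did. Over all genes, 15.5% rose and 18.9% fell. Keratinocyte markers were bright in every array. The mean level over the 6 basal markers was 10.54 to 10.91 in the inactivated arrays and 10.70 to 10.84 in the controls. Over the 7 suprabasal markers it was 11.79 to 12.26 in the inactivated arrays and 12.05 to 12.11 in the controls. Of the basal markers Krt14 rose (0.47), Col17a1 (-0.91) and Trp63 (-0.35) fell, and 3 did not pass. Of the suprabasal markers Dsc1 rose (0.64) and 6 did not pass. Markers of fibroblasts, which belong to dermis, were also bright, at 9.52 to 10.31 in the inactivated arrays and 10.41 to 11.06 in the controls, and all 7 fell. Beside the fall of Pla2g4a, T cell markers fell in 5 of 6 (mean level 5.31 to 5.69 in the inactivated arrays and 6.35 to 6.76 in the controls), macrophage markers in 4 of 7 (8.08 to 8.87 in the inactivated arrays and 8.91 to 9.18 in the controls) and Langerhans cell markers in 4 of 5 (9.10 to 9.87 in the inactivated arrays and 9.83 to 9.92 in the controls). Beside the rises of Pla2g4d and Pla2g4e, all 6 melanocyte markers rose (4.77 to 6.13 in the inactivated arrays and 3.71 to 3.95 in the controls). Inactivated replicate 4 stood apart in skeletal muscle and fat markers, with Acta1 at 8.96 and Adipoq at 8.30, against at most 5.74 and 6.06 on any other array. Among the inactivated arrays, replicate 1 was the lowest for Pla2g4a. Its median marker deviation from the control mean was -0.17 for macrophages, -0.14 for Langerhans cells and -1.24 for T cells. Within that group these were the weakest falls for macrophages and Langerhans cells and the strongest for T cells. For replicates 1 to 5 the melanocyte medians were 1.40, 2.39, 2.40, 1.11 and 1.01. The part of these cells in the members' changes was not tested. Inactivated replicate 5 lay closest to the controls on the first principal component, which held 63.4% of the variance. Leaving out any 1 array gave differences of 5.17 to 5.34 for Pla2g4d, 2.87 to 3.02 for Pla2g4e and -0.89 to -0.64 for Pla2g4a, all of which passed.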

How the data were processed

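Total RNA of epidermal sheets was labelled with a 3′ primed kit and hybridised to Affymetrix mouse whole-genome arrays, 1 per mouse, per the labels' protocols. The authors deposited 1 table of log2 values per probe set. Per the submitters' processing notes it was made with the tool affy. Its version, background correction, normalisation and summary were not given in the sources used here, and the log base was read from the values. The values were used as deposited, without a filter; array medians ran from 4.34 to 4.42. Precision is limited by the number of arrays.

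The platform annotation assigned 34945 probe sets to 1 gene and 932 to several, and did not list 9160. Each gene's brightest probe set, by mean log2 value across the 9 arrays, stood for the gene. Groups were compared with limma 3.58.1 (lmFit and eBayes, no covariates, 7 residual degrees of freedom) in R 4.3.3, and the fit was tested on simulated data. Pairs were compared by exact permutation with scipy 1.17.1, where the two-sided p doubles the smaller tail and cannot go below 0.0159. All 8 members are named, with up to 4 genes passing in each direction per list by lowest adjusted p. The 3 genes nearest to each member that changed at least 2-fold are named too. Pla2g4f, Ehd4, Vps39, Pla2g2a, Otud3, Anxa1, Mboat2, Lta4h, Hpgds, Ptges2 and the cell markers named were added for position or for their values. The members and lists were chosen with earlier results of these data known. Alternatives were quantile normalisation, subtraction of array medians, an intensity trend with a robust prior, array weights, a filter on dim probe sets, removal of probe sets whose suffix marks possible matches to other transcripts, a mean over a gene's probe sets, sex as a covariate, the replicate number as a block, a 0.01 threshold, and each array left out in turn.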

Additional observations from a re-analysis of the deposited data

Results flagged for a closer look

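Among the 22 groups of member values, 6 held an array whose gap to its nearest neighbour took up more of the group's range than the 95% critical value (0.829 for 4 arrays, 0.71 for 5). Over the 102 groups of values of all named genes there were 12 such arrays, where chance gives about 1 in 20 groups. The named genes include those chosen as nearest to Pla2g4d and Pla2g4e on the same arrays, so the groups are not independent. For Pla2g4d, inactivated replicate 5 at 7.33 was below the next inactivated array at 7.92, and control replicate 1 at 2.94 was above the next control at 2.53. For Pla2g2e, inactivated replicate 1 at 6.57 was above the next inactivated array at 5.45. For Pla2g6, inactivated replicate 2 at 6.61 stood above the rest on 1431277_at, and control replicate 2 at 2.80 stood above the rest on 1431278_s_at. For Pla2g12a, control replicate 2 at 6.42 was above the other controls by less than 0.1.

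Inactivated replicate 5 was also the lowest inactivated array, and apart from the others, for 3 of the genes nearest to Pla2g4d or Pla2g4e. These were Sprr2f at 9.59, Uox at 7.92 and Klk13 at 11.4. They were chosen for their likeness to Pla2g4d or Pla2g4e over the same arrays. Their low replicate 5 is therefore no separate observation. Control replicate 1 was apart on Pnpla3 at 9.20 and Plbd1 at 10.22, and control replicate 2 on Ltc4s at 5.62.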

How the results depend on the processing

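Of 193 recomputed differences of the 11 member probe sets, 164 kept their direction and their side of the threshold, including those of Pla2g4d, Pla2g4e, Pla2g4a and the Pla2g2f probe set 1421325_at under every alternative in which they could be fitted. Pla2g6 lost a call in 15 and Pla2g3 gained one with array weights (0.39, adjusted p = 0.0374, limma). The 13 changes of sign concerned differences that did not pass, and the cause was not tested. With array weights Pla2g2e read -0.048 and Pla2g2f 1434852_at -0.0064, and Pla2g6 1431278_s_at read 0.014 after subtraction of array medians and 0.010 with the replicate block. Leaving out single arrays gave -0.26 to 0.13 for Pla2g2e, -0.030 to 0.084 for Pla2g2f 1434852_at, -0.10 to 0.071 for Pla2g6 1431278_s_at and -0.18 to 0.0089 for Pla2g12a. Without probe sets ending in _x_at, _s_at or _a_at, 1 member probe set and 0 member genes were lower, because the only Pla2g4a probe set is among those removed. At a threshold of 0.01, 2 member probe sets were higher, with 2932 of all probe sets higher and 4377 lower, where the threshold of 0.05 gave 5698 and 7202. Leaving out single arrays gave 2 to 4 member probe sets higher. Of 708 recomputed differences of 40 other named genes, 47 lost their call and none changed sign. Same-numbered arrays of the 2 groups did not deviate together (correlations of -0.27, 0.01, -0.09 and 0.08). This gave no sign that the numbers pair the mice, though so few arrays cannot exclude it. With the replicate block, 3 member probe sets were higher and 2 lower, with 4679 higher and 6329 lower over all probe sets; the block takes up inactivated replicate 5, which has no control of its number. Array values near background and the number of arrays limit what small differences can show.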
